A study of Mus musculus with 21 samples.

Results

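The proteasome genes were taken as the array's transcript clusters that carry a single gene symbol of the form Psma to Psmg followed by a number, with the cluster of the highest mean signal kept for each symbol. The rule found 42 genes among the 14860 genes that had a symbol of their own, and no gene had more than 1 such cluster. Of these, 40 encode subunits, activators, inhibitors or assembly factors of the proteasome. The other 2, Psmc3ip, a meiotic recombination factor, and Psme3ip1, a binding partner of Psme3, met the rule by their names and are kept in all counts. Psma4, Psmd1 and Psme2 lay on clusters shared with other symbols, and the remaining subunits, Psmb5 among them, are not analysed here.

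The data come from 21 Affymetrix exon arrays, one for each sample, hybridised with total RNA of splenocyte cultures of Marilyn mice, whose CD4 T cells carry a transgenic receptor for the male HY antigen. All groups were activated cells sorted on CD4. The sample titles add HY for untreated and HYT for TGFB-induced reporter cells, and name no antigen for knockout cells. The reporter strain Marilyn.Foxp3hCD2, in which human CD2 marks cells that express Foxp3, gave TGFB-treated hCD2-positive cells, TGFB-treated hCD2-negative cells and untreated cells, with 5 arrays each. The knockout strain Marilyn.Foxp3-/- gave TGFB-treated and untreated cells, with 3 arrays each. All 6 knockout arrays are labelled study 2, while each reporter group has 3 arrays of study 1 and 2 of study 2. Samples are labelled as biological replicates with no mouse or culture given, and the p-values cover no more than the spread among them. The sources used here give no age, TGFB dose or culture time.

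The proteasome degrades proteins that carry ubiquitin. Its core is a barrel of alpha and beta rings that cuts proteins at catalytic beta subunits, and a regulatory particle of ATPases and non-ATPases binds ubiquitin, removes it and threads the protein into the core. In lymphocytes the catalytic subunits Psmb5, Psmb6 and Psmb7 can be replaced by the interferon-inducible subunits Psmb8, Psmb9 and Psmb10, which form the immunoproteasome, known for making peptides for MHC class I. The transcription factor Nfe2l1 is known to drive most of the subunit genes together when proteasome activity is low.

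Arrays give no read depth, so their number limits the precision. The values are log2 signals, and signals are compared across arrays within a cluster, apart from sums of marker genes and differences between paired subunits within an array, which are themselves compared across arrays. Over all clusters, the lower quartile of the signal was 4.93 to 5.02 on the 15 reporter arrays and 5.61 to 5.68 on the 6 knockout arrays, which limits any level set across the genotypes. On 4 reporter arrays the signals were spread over a narrow range, with an interquartile range under 2.5: hCD2-positive replicate 3 (2.01) and hCD2-negative replicates 1, 3 and 4 (2.33, 2.23 and 2.47). The untreated reporter arrays had ranges of 2.74 to 3.14. Untreated knockout replicates 1 and 2 (2.41 and 2.38) and TGFB-treated knockout replicate 1 (2.33) also lay under 2.5. They were kept in every run without the narrow arrays, and the name narrow is used below for reporter arrays alone. The cluster shared by Foxp3 and Flicr averaged 10.67 ± 1.02 in hCD2-positive cells, 6.72 ± 0.31 in hCD2-negative cells and 6.30 ± 0.22 in untreated reporter cells (SD, n = 5 each). In the knockout it averaged 8.55 ± 0.32 in TGFB-treated and 6.94 ± 0.20 in untreated cells (SD, n = 3 each). The deleted part of Foxp3 is not given in the sources used here, so this cluster does not check the knockout label. T cell markers were high in every group (7 of 8 measured, highest single level 12.67), and the highest marker of B cells, dendritic cells and macrophages, NK cells, granulocytes and erythroid cells on any reporter array was 7.28, 5.68, 8.10, 6.78 and 5.00. Of these, Eomes, which T cells also express, was the NK cell marker at 8.10, while Ncr1 lay under the lower quartile on every array. No marker of B cells, dendritic cells and macrophages, granulocytes or erythroid cells was called between TGFB-treated and untreated reporter cells, and Eomes was called lower in both fractions. The T cell markers, summed on the linear scale, gave 7745 to 18523 in hCD2-positive cells, 10061 to 14846 in hCD2-negative cells and 13420 to 14436 in untreated reporter cells.

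The median signal of the 42 genes was 7.31 on the narrow hCD2-positive array and 7.91, 7.45 and 7.88 on the narrow hCD2-negative arrays, against 8.35 to 8.64 on the other 6 TGFB-treated reporter arrays and 8.49 to 9.14 on the untreated reporter arrays. By group it averaged 8.28 ± 0.55 in hCD2-positive cells, 8.02 ± 0.42 in hCD2-negative cells and 8.77 ± 0.30 in untreated reporter cells (SD, n = 5 each). Quantile normalization, which gives all arrays the same distribution, brought these to 8.49 ± 0.09, 8.38 ± 0.13 and 8.62 ± 0.18. The deposited medians on the untreated reporter arrays lay above the upper quartile of all clusters there, 7.76 to 8.15. The background of all genes used below is thus dimmer than the members. In the reporter, the narrow range and the TGFB-treated groups moved together. The part of the range in the results below was not tested beyond the values given with quantile normalization and without the 4 narrow arrays.

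**Figure D1:**
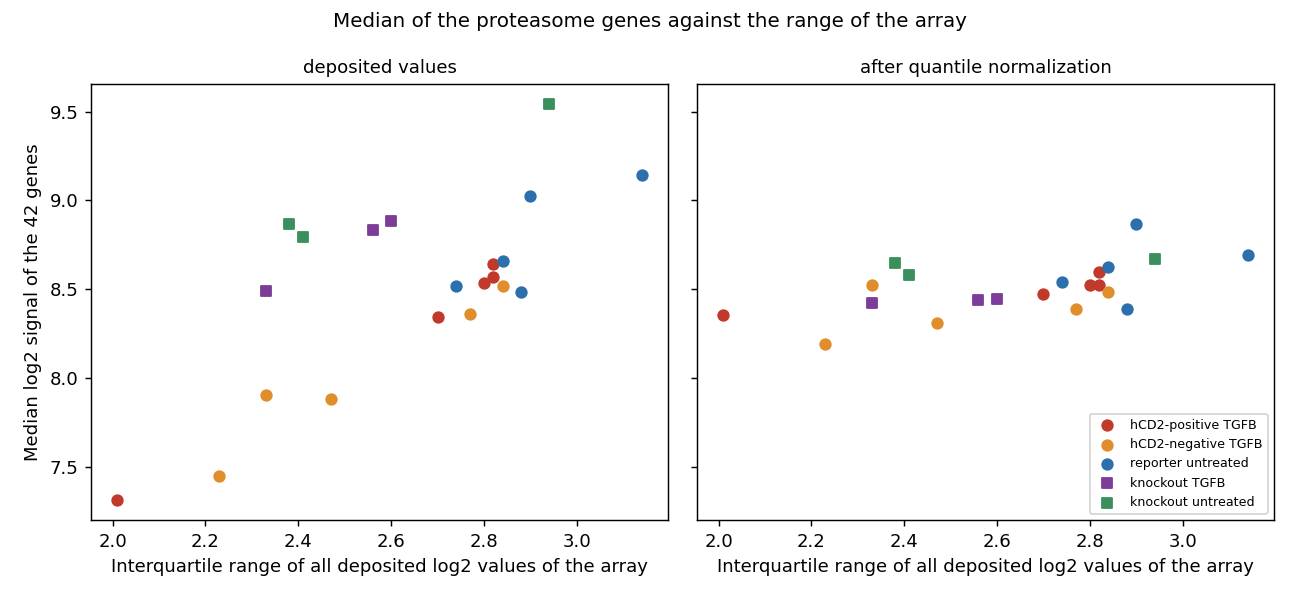
Median log2 signal of the 42 genes on each array (vertical) against the interquartile range of all deposited log2 values of that array (horizontal), as deposited (left) and after quantile normalization (right), with circles for reporter and squares for knockout arrays. As deposited, the 4 narrow reporter arrays lie at 7.31 to 7.91, below the other reporter arrays at 8.35 to 9.14. After quantile normalization all 21 arrays lie between 8.19 and 8.87.

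In TGFB-treated hCD2-negative cells 18 of the 42 genes fell and none rose relative to untreated reporter cells (limma, adjusted p under 0.05). Among all 14860 genes, 16.9% were called lower, against 42.9% of the proteasome genes. The log2 fold changes were below 0 for 41 of the 42 genes, with a median of -0.69, against a median of -0.09 for all genes. The genes called included 2 alpha ring subunits, Psmb1 of the beta ring, 2 immunoproteasome subunits, 5 of the 6 regulatory ATPases, 4 of the 10 regulatory non-ATPases, the alpha ring chaperones Psmg1 and Psmg2, the activator subunit Psme1 and Psmc3ip. After quantile normalization the median was -0.23, against 0.05 for all genes, and 16 genes were called lower, of which 15 were shared. The split of all genes then was 11.6% lower and 11.3% higher, against 16.9% and 2.05% as deposited. Without the 4 narrow arrays 2 of the 42 genes were called, Psmb1 and Psmb8. That is 4.76% of the members, all lower, against 6.8% of all genes called in either direction. The share of all genes called lower alone was not counted without these arrays. The shares are therefore not like for like, and no excess of the members was shown. The median was then -0.32 with 40 genes below 0, against -0.04 for all genes. Both changes together, a choice made after seeing the data, left 7 calls: Psma1, Psma7, Psmb1, Psmb8, Psmb9, Psmd8 and Psmg1, or 16.7% of the members against 13.2% of all genes in either direction. RNA of a bulk sample cannot tell fewer cells of a type from less RNA per cell.

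**Figure D2:**
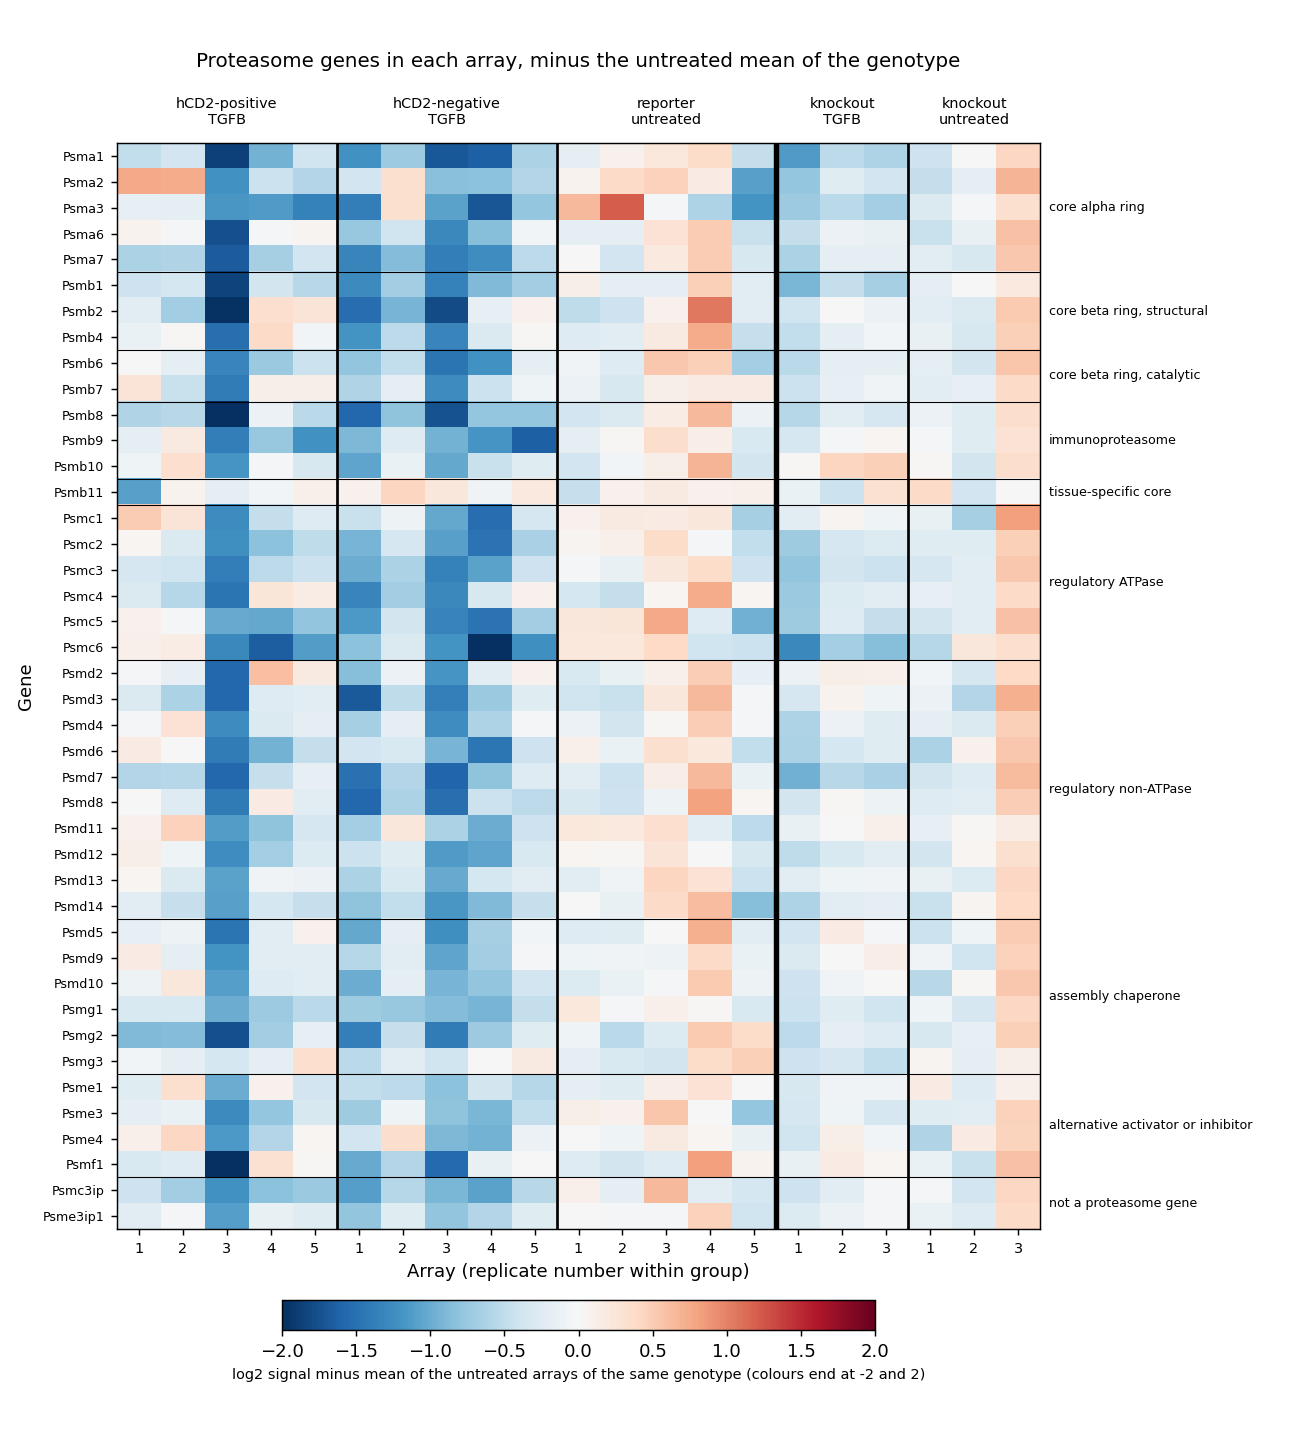
Log2 signal of each of the 42 genes (rows, by role) on each of the 21 arrays (columns, by group and replicate number), minus the mean of the untreated arrays of the same genotype; the colours end at -2 and 2. The column of hCD2-positive replicate 3, the narrowest array, is the lowest of its group for 38 of the 42 genes. The columns of hCD2-negative replicates 1, 3 and 4 are the other narrow reporter arrays.

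In the alpha ring, which gates the entry to the core, Psma1 had log2 signals of 8.39, 8.88, 7.91, 7.97 and 8.97 in hCD2-negative cells, against 9.42, 9.69, 9.81, 9.97 and 9.13 in untreated reporter cells. All 5 hCD2-negative arrays lay below the lowest untreated array. The log2 fold change was -1.18 ± 0.29 (SE, adjusted p = 0.00765), which is 2.27-fold lower. Psma7 had 7.31, 7.77, 7.25, 7.40 and 8.12 in hCD2-negative cells, against 8.64, 8.25, 8.84, 9.15 and 8.31 in untreated cells, again without overlap (log2 fold change -1.07 ± 0.24, adjusted p = 0.00405). Psma2, Psma3 and Psma6 had log2 fold changes of -0.46, -0.92 and -0.67 and were not called, and Psma3 was one of 2 members, with Psmb11, among the dimmest genes. After quantile normalization Psma3 was called at -1.02 (adjusted p = 0.0457), and Psma2 lay at 0.03.

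Of the structural beta ring subunits, Psmb1 had 8.26, 8.84, 8.19, 8.66 and 8.84 in hCD2-negative cells, against 9.65, 9.36, 9.35, 10.01 and 9.33 in untreated cells. The groups did not overlap, and the log2 fold change was -0.98 ± 0.23 (SE, adjusted p = 0.00589). This call was also made without the narrow arrays, at -0.71 (adjusted p = 0.0282). Psmb2 and Psmb4 had log2 fold changes of -0.87 and -0.66, with adjusted p = 0.0508 and 0.11.

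Of the constitutive catalytic subunits, Psmb6, the caspase-like site, had 7.86, 8.16, 7.19, 7.44 and 8.45 in hCD2-negative cells, against 8.57, 8.39, 9.18, 9.13 and 7.97 in untreated cells. Psmb7, the trypsin-like site, had 8.07, 8.48, 7.42, 8.25 and 8.59, against 8.56, 8.35, 8.80, 8.84 and 8.84. Both overlapped between the groups, and neither was called (log2 fold changes -0.83 and -0.52, adjusted p = 0.0575 and 0.145).

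The immunoproteasome subunit Psmb8, which takes the place of Psmb5, had 8.48, 9.25, 8.31, 9.29 and 9.29 in hCD2-negative cells, against 9.67, 9.76, 10.20, 10.71 and 9.94 in untreated cells. The 5 hCD2-negative values were all lower, and the log2 fold change was -1.13 ± 0.26 (SE, adjusted p = 0.00464), or 2.19-fold lower. It was also called without the narrow arrays, at -0.82 (adjusted p = 0.038). Psmb9, the counterpart of Psmb6, had 9.23, 9.88, 9.19, 8.95 and 8.50 in hCD2-negative cells, against 9.95, 10.15, 10.48, 10.26 and 9.83 in untreated cells. One hCD2-negative array lay above the lowest untreated array, and the gene fell by 0.98 on the log2 scale (SE 0.24, adjusted p = 0.00846). Psmb10, the counterpart of Psmb7, had 8.01, 8.93, 8.04, 8.62 and 8.82 in hCD2-negative cells, against 8.68, 9.01, 9.18, 9.73 and 8.69 in untreated cells. It was not called (log2 fold change -0.57, adjusted p = 0.132), and after quantile normalization it lay at -0.05. Psmb11, the counterpart of Psmb5 in the thymus cortex, was the member with the smallest change and the single one above 0, at 0.17 (adjusted p = 0.595). Its signals were 5.54, 5.88, 5.67, 5.37 and 5.64 in hCD2-negative cells, against 4.99, 5.54, 5.62, 5.54 and 5.55 in untreated cells.

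The 6 ATPases unfold the substrate and had the second largest median log2 fold change of the classes with more than 3 genes, at -0.89. Psmc6 had 8.68, 9.20, 8.30, 7.24 and 8.27 in hCD2-negative cells, against 9.71, 9.71, 9.89, 9.09 and 9.07 in untreated cells. One hCD2-negative array lay within the untreated range, and the gene fell by 1.16 on the log2 scale (SE 0.27, adjusted p = 0.00627). Psmc5 had 6.96, 7.74, 6.77, 6.63 and 7.41, against 8.34, 8.35, 8.87, 7.85 and 7.15, and fell by 1.01 (SE 0.27, adjusted p = 0.0139). The lowest untreated array overlapped with 2 hCD2-negative arrays. Without hCD2-negative replicate 3 the call on Psmc5 was lost (log2 fold change -0.86, adjusted p = 0.0502). Psmc2, Psmc3 and Psmc4 were called at -0.89, -0.89 and -0.71, and Psmc1 at -0.69 was not (adjusted p = 0.145). The call on Psmc4 ended with quantile normalization (-0.21, adjusted p = 0.111).

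Among the 10 non-ATPases the median log2 fold change was -0.67. Psmd7 and Psmd8 of the lid fell by 0.95 and 0.94 (adjusted p = 0.013 and 0.0125), Psmd3 of the lid fell by 0.91 (adjusted p = 0.0265), and Psmd14, the deubiquitinase that strips ubiquitin from the substrate, fell by 0.76 (adjusted p = 0.0369). Psmd2, Psmd4, a ubiquitin receptor, Psmd6, Psmd11, Psmd12 and Psmd13 lay between -0.45 and -0.69 and were not called. The call on Psmd14 was lost after quantile normalization (-0.26, adjusted p = 0.263) and on leaving out any of 7 of the 10 arrays singly, and that on Psmd3 on leaving out any of 5.

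The assembly chaperones and the activators and inhibitor of the core had median log2 fold changes of -0.64 and -0.58. Psmg1 and Psmg2, which build the alpha ring as a pair, fell by 0.74 and 0.84 (SE 0.15 and 0.21, adjusted p = 0.00219 and 0.0105), while Psmg3, of another chaperone pair, lay at -0.19 and was not called. The chaperones of the ATPase ring Psmd5, Psmd9 and Psmd10 lay at -0.63, -0.52 and -0.66 and were not called. Psme1, a subunit of the interferon-inducible activator, had 9.76, 9.73, 9.44, 9.89 and 9.69 in hCD2-negative cells, against 10.08, 10.01, 10.39, 10.54 and 10.27 in untreated cells. These did not overlap, and Psme1 fell by 0.56 (SE 0.18, adjusted p = 0.0403), but after quantile normalization it lay at -0.09 (adjusted p = 0.674). The activators Psme3 and Psme4 and the inhibitor Psmf1 lay at -0.61, -0.40 and -0.66 and were not called. In all, the hCD2-negative arrays lay wholly below the untreated reporter arrays for 8 of the 42 genes, against 9.04% of all genes. After quantile normalization 3 genes were left without overlap, Psma1, Psma7 and Psmb1, against 5.85% of all genes.

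**Figure D3:**
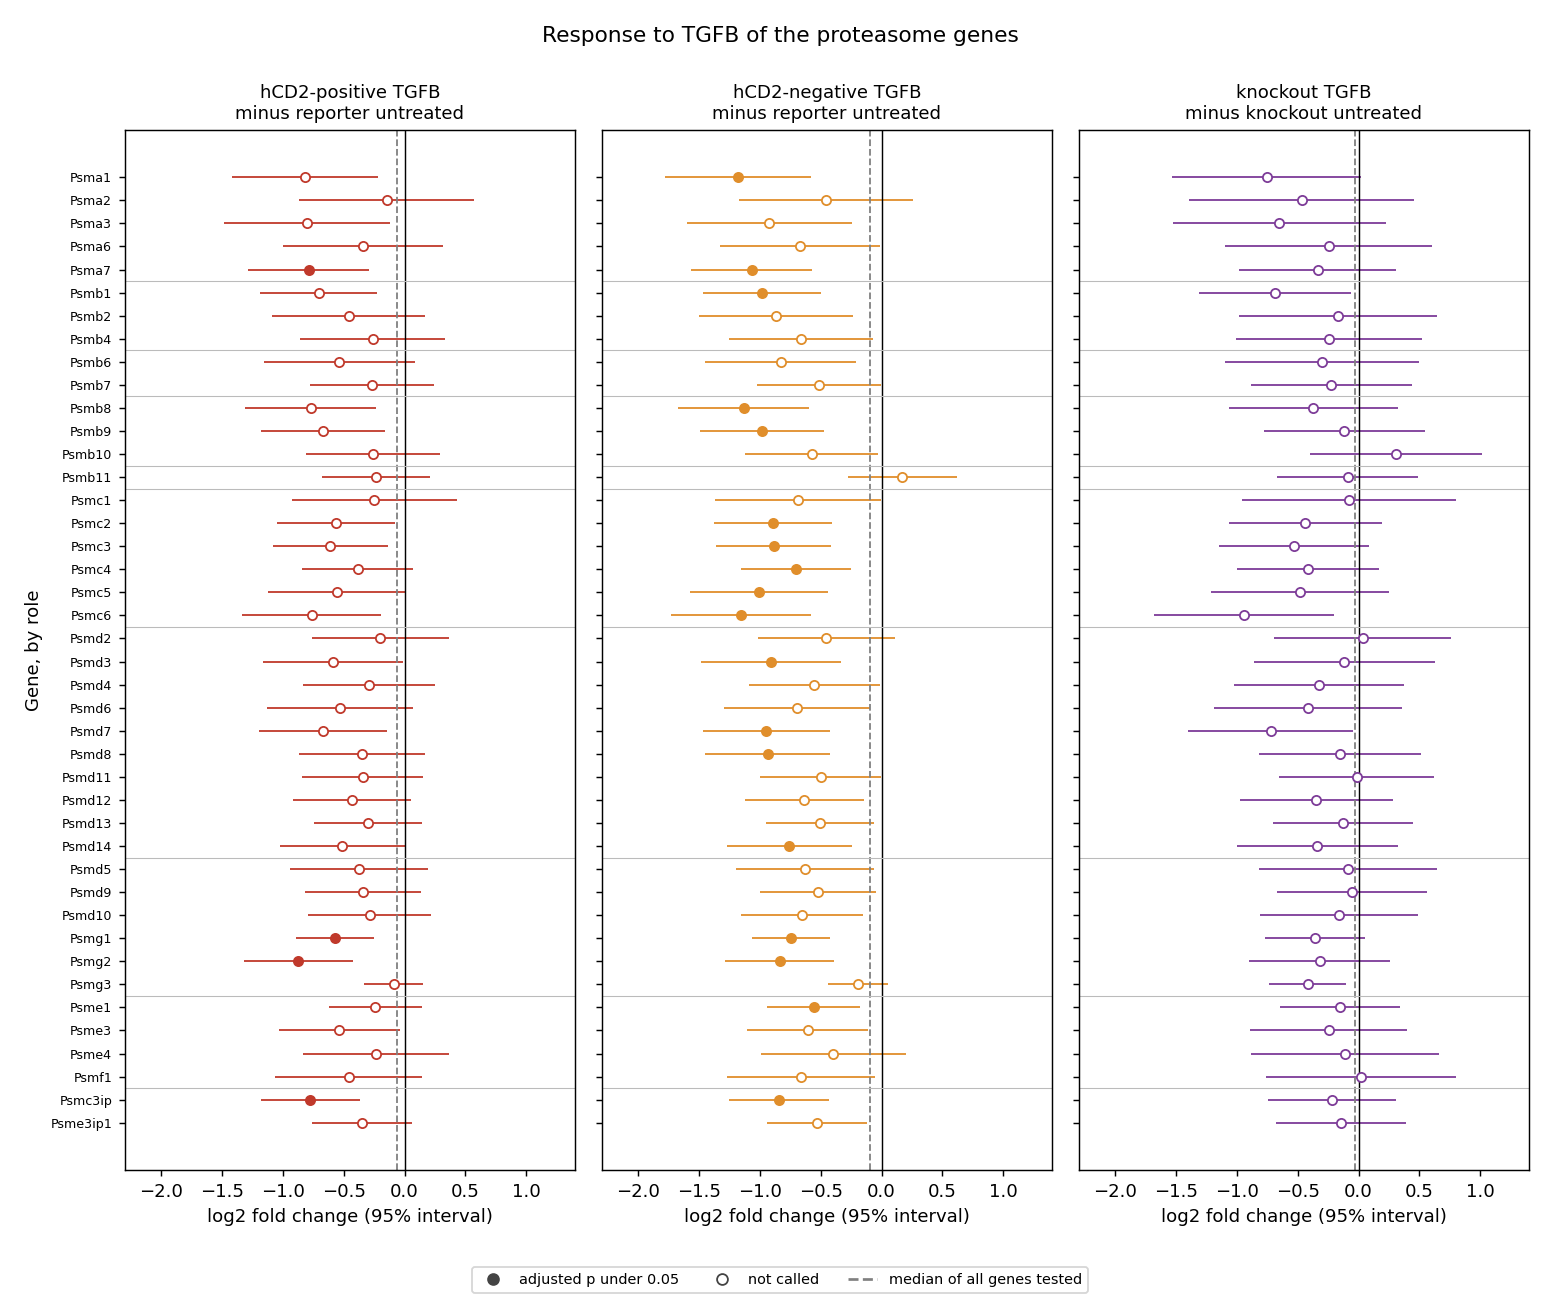
Log2 fold change with its 95% interval for each of the 42 genes (rows, by role) in TGFB-treated hCD2-positive cells (left), hCD2-negative cells (middle) and knockout cells (right), each minus the untreated cells of its genotype. Filled points have an adjusted p under 0.05 (4, 18 and 0 genes), and the dashed line marks the median of all 14860 genes (-0.07, -0.09 and -0.03).

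The promoters of the genes were searched for 5 motifs, since most members lay on the same side of 0. RefSeq gave the 250 bases before the gene's start (GRCm38.p6) for 35 of the 42 genes. The shares are set against all 27025 genes with such a sequence. That set is wider than the 14860 genes tested on the arrays, and the shares among the tested genes were not counted. Both strands were searched. The ETS site CCGGAAG was present in 13 of 35 promoters (37.1%, against 7.83% of all genes), and the CCAAT box CCAAT in 15 (42.9%, against 37.5%). The core of the antioxidant response element, TGACNNNGC, to which Nfe2l1 is known to bind, was present in 4 (11.4%, against 11.5%). The interferon-stimulated response element (GAAA, any 2 bases, GAAA) was present in 2 (5.71%, against 3.46%) and the STAT-binding GAS element TTCNNNGAA in 2 (5.71%, against 8.13%). Of the 13 genes called in hCD2-negative cells that had a promoter sequence, 4 held the ETS site, and of the 22 not called, 9 did. The GAS element stood in the promoters of Psmb8 and Psmg1, both called, and in none of the others. A match of letters is a description and not a site in use. The sequences below are those of Psma1, which fell the most, of the immunoproteasome subunit Psmb8 and of the chaperone Psmg1, which hold the motifs named. Each is the strand of the gene, 5′ to 3′, ending 1 base before the start, with motifs in capitals, none of which overlap. Psma1 (chr7:114276117-114276366, minus strand) has CCAAT boxes whose first bases lie 126 bases (opposite strand) and 98 bases before the start. Psmb8 (chr17:34197945-34198194, plus strand) has a GAS element at 97 bases, and Psmg1 (chr16:95990961-95991210, minus strand) has a GAS element at 243 and an ETS site at 69 bases.
Psma1: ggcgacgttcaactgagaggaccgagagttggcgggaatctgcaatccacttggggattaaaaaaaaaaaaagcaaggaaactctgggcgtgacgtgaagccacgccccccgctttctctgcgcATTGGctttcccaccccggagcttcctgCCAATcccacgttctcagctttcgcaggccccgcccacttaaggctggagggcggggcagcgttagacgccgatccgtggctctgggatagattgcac
Psmb8: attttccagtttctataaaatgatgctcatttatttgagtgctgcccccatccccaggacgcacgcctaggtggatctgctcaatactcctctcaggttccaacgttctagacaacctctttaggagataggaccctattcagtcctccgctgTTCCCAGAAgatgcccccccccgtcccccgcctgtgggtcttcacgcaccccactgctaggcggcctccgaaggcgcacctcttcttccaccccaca
Psmg1: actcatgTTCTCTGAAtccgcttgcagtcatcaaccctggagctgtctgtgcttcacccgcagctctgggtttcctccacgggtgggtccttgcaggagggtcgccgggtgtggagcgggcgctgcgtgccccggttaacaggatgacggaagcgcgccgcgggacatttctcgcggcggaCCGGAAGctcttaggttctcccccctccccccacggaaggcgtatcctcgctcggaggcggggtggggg

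In TGFB-treated hCD2-positive cells, 4 of the 42 genes fell and none rose relative to untreated reporter cells: the chaperones Psmg2 and Psmg1, the alpha ring subunit Psma7 and Psmc3ip. That is 9.52% of the genes, against 9.66% of all genes called lower, so the share called was near that of all genes. The log2 fold changes were below 0 for all 42 genes as deposited, with a median of -0.45 against -0.07 for all genes, and for 30 of the 42 after quantile normalization, with a median of -0.16 against 0.04. Quantile normalization called 7 genes lower: Psma1, Psma7, Psmb1, Psmb8, Psmc3ip, Psmd7 and Psmg2. It also changed the split over all genes, from 9.66% lower and 1.94% higher as deposited to 9.36% lower and 8.39% higher. Without the narrow arrays 2 genes were called, Psmc3ip and Psmg2, which is 4.76%, against 10.7% of all genes in either direction. The median was then -0.19, against -0.03 for all genes. Leaving out hCD2-positive replicate 3 by itself gave -0.20, with 37 genes below 0.

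Psmg2 had log2 signals of 6.93, 6.95, 6.05, 7.12 and 7.64 in hCD2-positive cells, against 7.73, 7.27, 7.54, 8.34 and 8.17 in untreated reporter cells. The highest hCD2-positive array lay above 2 untreated arrays, and the gene fell by 0.87 on the log2 scale (SE 0.21, adjusted p = 0.0112), or 1.83-fold. Psma7 had 8.01, 8.04, 6.97, 7.98 and 8.26 in hCD2-positive cells, against 8.64, 8.25, 8.84, 9.15 and 8.31 in untreated cells. Its groups met at 8.26 and 8.25, and it fell by 0.79 (SE 0.24, adjusted p = 0.0374). Psmc3ip had 6.48, 6.20, 5.69, 6.08 and 6.16 in hCD2-positive cells, against 7.0, 6.71, 7.54, 6.69 and 6.54 in untreated cells. Its groups did not overlap, and it fell by 0.77 (SE 0.19, adjusted p = 0.0131). Psmg1 fell by 0.57 (SE 0.15, adjusted p = 0.0191). The calls on Psma7 and Psmg1 did not hold without hCD2-positive replicate 3 (-0.58 and -0.45, adjusted p = 0.106 and 0.0535), nor on leaving out hCD2-positive replicate 4 or untreated replicates 1 or 4, and that on Psma7 also not without untreated replicate 3. Psmb1 was the other gene whose arrays did not overlap, at 9.13, 9.19, 7.69, 9.17 and 8.99 against 9.65, 9.36, 9.35, 10.01 and 9.33 in untreated cells, but it missed the threshold (log2 fold change -0.71, adjusted p = 0.0539). Over all genes 6.46% had hCD2-positive arrays wholly below the untreated ones.

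By role, the alpha ring had the largest median log2 fold change in hCD2-positive cells, at -0.79, and the 10 non-ATPases and the 6 chaperones had medians of -0.39 and -0.36. Of the immunoproteasome subunits, Psmb8 had 9.46, 9.50, 8.01, 9.94 and 9.52 in hCD2-positive cells, with a log2 fold change of -0.77 (adjusted p = 0.0596). Psmb9 had 9.94, 10.32, 8.75, 9.38 and 8.92, at -0.67 (adjusted p = 0.0846), and Psmb10 had 8.97, 9.39, 7.88, 9.02 and 8.73, at -0.26 (adjusted p = 0.563). All 3 overlapped with the untreated arrays given above. Psmb6 had 8.66, 8.45, 7.32, 7.91 and 8.22 in hCD2-positive cells (-0.54, adjusted p = 0.265), and Psmb7 had 8.94, 8.24, 7.28, 8.80 and 8.80 (-0.27, adjusted p = 0.521). Psme1 lay at -0.24 (adjusted p = 0.428). After quantile normalization Psmb7, Psmb10 and Psme1 turned to the other side of 0, at 0.09, 0.10 and 0.10. The smallest change was that of Psmg3, at -0.09, with 5.87, 5.72, 5.57, 5.72 and 6.26 in hCD2-positive cells, against 5.74, 5.61, 5.55, 6.29 and 6.40 in untreated cells.

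**Figure D4:**
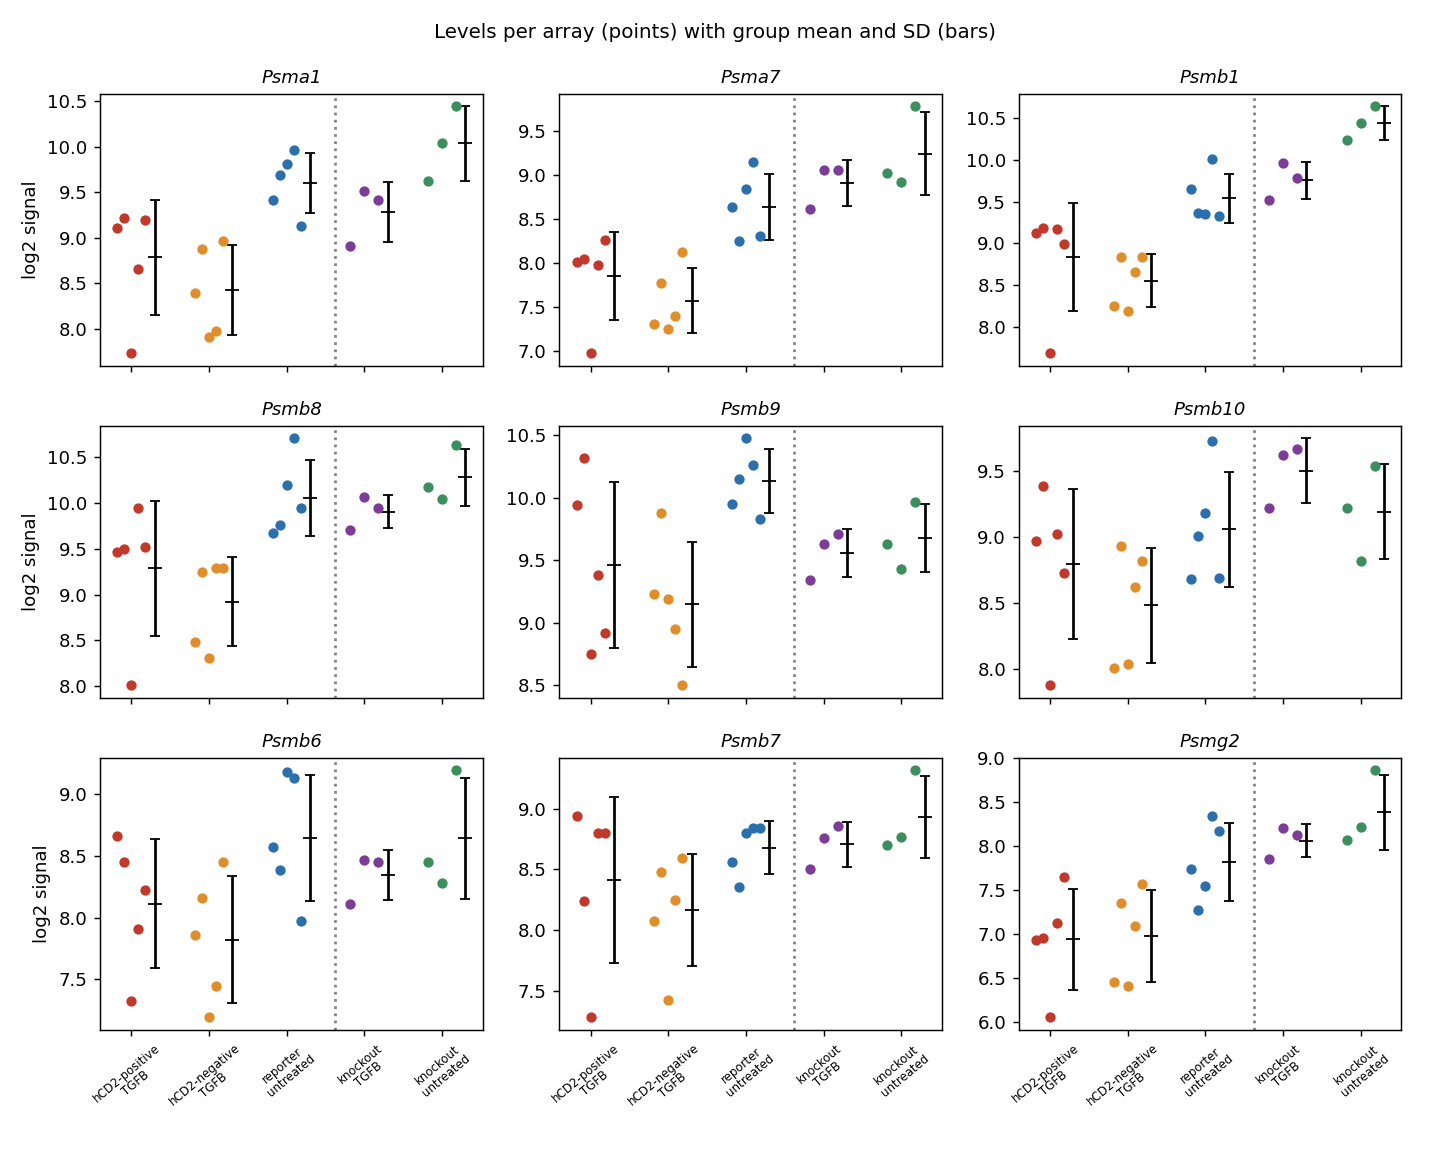
Log2 signal on each array (points) with the group mean and SD (bars) for 9 genes: 3 core subunits, the immunoproteasome subunits Psmb8, Psmb9 and Psmb10, the catalytic subunits Psmb6 and Psmb7, and the chaperone Psmg2. Groups run from TGFB-treated hCD2-positive, hCD2-negative and untreated reporter cells to TGFB-treated and untreated knockout cells, and vertical axes do not start at 0. The lowest hCD2-positive point in every panel is replicate 3, which has the narrowest range of the 21 arrays.

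No member was called between hCD2-positive and hCD2-negative cells by limma, and 1 of the 42, Psmd8, was under 0.05 before adjustment. Its log2 fold change was 0.59 ± 0.25 (SE, adjusted p = 1.00). Over all genes 0.155% were called. The median log2 fold change, hCD2-positive over hCD2-negative, was 0.28, against 0.04 for all genes, and after quantile normalization 0.14. Without hCD2-positive replicate 3 the median was 0.50, and 26 of the 42 genes were under 0.05 before adjustment, none of them called after it. That run left no narrow array among the hCD2-positive cells and kept all the narrow arrays of the hCD2-negative cells. The range of the arrays was therefore not balanced between the fractions, and this median cannot be read as a difference between them. Without hCD2-negative replicate 3, hCD2-positive replicate 1 or hCD2-positive replicate 2 the median was 0.15 to 0.16. For 40 of the 42 genes the group means ran in the order hCD2-negative, hCD2-positive and untreated, low to high, and the share of all genes in this order was not counted. The exceptions were Psmg2, with means of 6.94 ± 0.57 in hCD2-positive and 6.97 ± 0.52 in hCD2-negative cells (SD, n = 5 each), which was also the smallest difference, and Psmb11. In hCD2-negative cells Psmg2 had 6.45, 7.35, 6.41, 7.09 and 7.56, within the range of the hCD2-positive values given above. Neighbours in this order did not differ beyond their spread between the fractions. The groups stand in the same order by their number of narrow arrays, most to fewest, and the part of these arrays in the order was not tested. Psmd8 had 9.48, 9.23, 8.08, 9.66 and 9.28 in hCD2-positive cells, against 7.92, 8.86, 7.98, 9.06 and 8.97 in hCD2-negative cells, and the fractions overlapped.

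The labels number the studies 1 and 2, and the medians lay below 0 in both. In hCD2-positive cells the median log2 fold change of the 42 genes was -0.52 in study 1 (3 arrays a group) and -0.34 in study 2 (2 arrays a group), with 41 and 40 genes below 0. In hCD2-negative cells it was -0.79 and -0.55, with 41 and 42 genes below 0. Calls within a study were few, with 0 and 0 genes in hCD2-positive cells and 0 and 1 in hCD2-negative cells. Of all genes, 1.88% and 1.4% were called in either direction within study 1 and study 2 in hCD2-positive cells. In hCD2-negative cells these shares were 3.58% and 2.97%, so the members' counts lay near the share of all genes. The 1 call was on Psmb9, with a log2 fold change of -1.32 in study 2 (adjusted p = 0.025) and -0.76 in study 1 (adjusted p = 0.357). Psmb8 lay at -1.20 in study 1 and -1.04 in study 2, and Psma1 at -1.25 and -1.08. Psmc5 differed more, at -1.36 in study 1 and -0.48 in study 2.

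In cells labelled Foxp3-/- no proteasome gene was called by limma between TGFB-treated and untreated cells on the deposited values, and 4 of the 42 had an unadjusted p under 0.05: Psmc6, Psmg3, Psmb1 and Psmd7. Over all genes 1.85% were called lower and 0.895% higher. The log2 fold changes were below 0 for 39 of the 42 genes, with a median of -0.25 against -0.03 for all genes, and after quantile normalization for 31 of the 42, with a median of -0.13 against 0.01. Single arrays moved the deposited median by over 1.5 times. It was -0.05, with 26 of the 42 genes below 0, without untreated replicate 3, and -0.15 without TGFB-treated replicate 1. Without untreated replicate 1 or 2 it was -0.40 or -0.39. Quantile normalization called 5 genes lower, Psmc6 (-0.85, adjusted p = 0.00442), Psma1 (-0.61), Psmd7 (-0.58), Psmb1 (-0.54) and Psmc3 (-0.40), where 5.07% of all genes were called lower and 5.77% higher. On the deposited values 8 of the 42 genes had TGFB-treated arrays wholly below the untreated ones, namely Psma1, Psma3, Psmb1, Psmc2, Psmc3, Psmc6, Psmd7 and Psmg3, against 11.1% of all genes.

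Psmc6 had log2 signals of 7.58, 8.20 and 8.02 in TGFB-treated knockout cells, against 8.31, 9.10 and 9.22 in untreated knockout cells, without overlap (log2 fold change -0.94 ± 0.35, SE, adjusted p = 0.233). Psma1 had 8.91, 9.52 and 9.42, against 9.63, 10.04 and 10.45 in untreated cells. Psmb1 had 9.52, 9.96 and 9.78, against 10.24, 10.44 and 10.64. These genes carry no call as deposited, and untreated replicate 3, which has the widest range of the knockout arrays (2.94), is the highest array for each of the 3 genes. The smallest change was that of the lid subunit Psmd11, with 10.76, 10.90 and 11.01 in TGFB-treated cells, against 10.74, 10.93 and 11.05 in untreated cells (log2 fold change -0.02). Psme1 had 10.36, 10.60 and 10.61, against 10.83, 10.41 and 10.78 (-0.15). Both turned to the other side of 0 after quantile normalization, at 0.14 and 0.04.

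The immunoproteasome subunits of the knockout had log2 fold changes on both sides of 0. Psmb10 had 9.22, 9.62 and 9.67 in TGFB-treated cells, against 9.22, 8.82 and 9.54 in untreated cells, with the highest log2 fold change of the 42 genes, 0.31 (adjusted p = 0.919). Psmb8 had 9.71, 10.06 and 9.95, against 10.17, 10.04 and 10.63 (-0.37, adjusted p = 0.863). Psmb9 had 9.34, 9.63 and 9.71, against 9.63, 9.43 and 9.97, at -0.12 (adjusted p = 0.99) and at 0.03 after quantile normalization. None of the 3 was called. Of the constitutive counterparts, Psmb6 had 8.11, 8.47 and 8.45 against 8.45, 8.28 and 9.20 in untreated cells (-0.30), and Psmb7 had 8.50, 8.76 and 8.86 against 8.70, 8.77 and 9.32 (-0.22).

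Within an array, the signal of an immunoproteasome subunit minus that of its constitutive counterpart does not depend on a shift shared by both. This measure was chosen after values were seen, for the pairs Psmb9 with Psmb6 and Psmb10 with Psmb7 in 5 contrasts, 10 exact permutation tests in all, 2-sided. For Psmb10 minus Psmb7 the difference averaged 0.80 ± 0.07 in TGFB-treated and 0.26 ± 0.24 in untreated knockout cells (SD, n = 3 each), and the values, 0.72 to 0.86 and 0.05 to 0.52, did not overlap. The exact p of 0.1 is the smallest that 3 against 3 arrays allow, and it was 0.536 after adjustment over the 10 tests. In the reporter, the mean of Psmb10 minus Psmb7 was 0.39 ± 0.50 in hCD2-positive cells, 0.32 ± 0.26 in hCD2-negative cells and 0.38 ± 0.41 without TGFB (SD, n = 5 each). Psmb9 minus Psmb6 averaged 1.35 ± 0.42, 1.33 ± 0.75 and 1.49 ± 0.31 in the same order. None of the 10 tests passed (lowest adjusted p 0.536).

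The response of the reporter fractions was not shown to differ from that of the knockout. As the contrast of both responses, no member was called by limma for hCD2-positive or for hCD2-negative cells, with 0 and 1 of the 42 at an unadjusted p under 0.05, and 0% and 0.00673% of all genes called. The 1 gene was Psmb9, whose response was lower by 0.87 ± 0.40 in hCD2-negative than in knockout cells on the log2 scale (SE, adjusted p = 0.902). The median of the differences was -0.42 for hCD2-negative cells as deposited and -0.09 after quantile normalization. For hCD2-positive cells it was -0.16 as deposited and turned to 0.02 after quantile normalization and to 0.05 without hCD2-positive replicate 3, and the other arrays left out singly gave down to -0.39 (without untreated knockout replicate 3). Without the narrow reporter arrays the median for hCD2-positive cells was 0.07, against -0.01 for all genes. The knockout arrays with a range under 2.5 were kept in that run. Within study 2, to which all knockout arrays belong, the medians were -0.30 for hCD2-negative and -0.05 for hCD2-positive cells. The reporter and knockout comparisons share no arrays. Across the 42 genes, which share their arrays and are not independent, the log2 fold changes of hCD2-negative and knockout cells had Pearson's r = 0.52 and Spearman's rho = 0.54 (0.58 and 0.52 after quantile normalization). Those of hCD2-positive and knockout cells had r = 0.56 and rho = 0.52 (0.54 and 0.51). Psma1, Psmc6, Psmb1 and Psmd7 had log2 fold changes under -0.65 in both. The correlations were not computed over all genes, so they cannot be read as particular to the members.

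**Figure D5:**
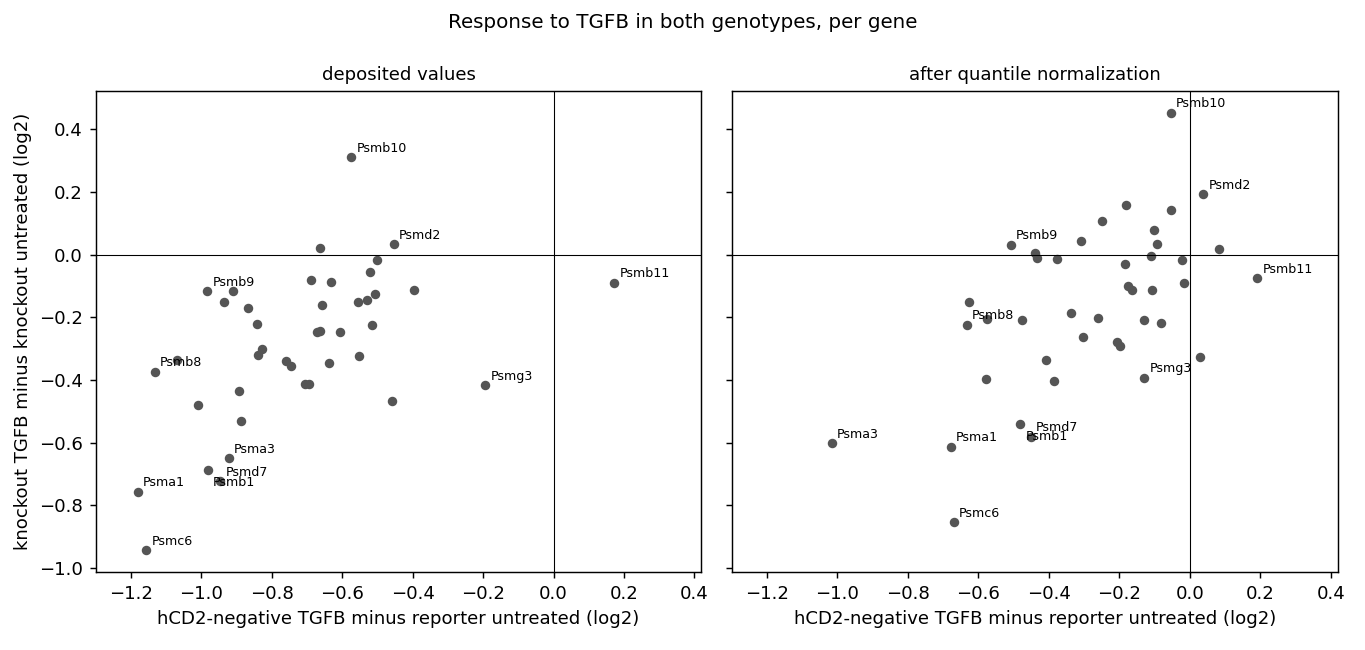
Log2 fold change with TGFB of each of the 42 genes in knockout cells (vertical) against hCD2-negative reporter cells (horizontal), each minus the untreated cells of its genotype, as deposited (left) and after quantile normalization (right). As deposited, 38 of the 42 genes lie below 0 in both, and after quantile normalization 29 do. Psmc6, Psma1, Psmb1 and Psmd7 lie at the lower left in both panels, and Psmb10 is the highest gene in knockout cells.

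Between the genotypes, untreated knockout cells had 2 of the 42 genes called higher than untreated reporter cells, Psmd14 and Psmg3, where 45.9% of all genes were called higher and 0.141% lower (1.8% and 2.11% after quantile normalization). The median log2 fold change was 0.10 for the 42 genes and 0.44 for all genes. The difference of these medians was -0.34 as deposited and -0.11 after quantile normalization. On untreated arrays the lower quartile was 4.98 to 5.02 in the reporter and 5.63 to 5.68 in the knockout. The upper quartile was 7.76 to 8.15 and 8.03 to 8.62, and the members are bright genes. The offset between the genotypes thus varied with signal level, so neither this gap nor the shares called can be read as particular to the members. The sign of the members' median turned with the scaling, to -0.10 after quantile normalization (all genes 0.00) and -0.39 with each array centred on its median. It also turned on leaving out single arrays, to -0.14 without untreated knockout replicate 3 (31 of the 42 genes below 0) and -0.05 without untreated reporter replicate 5 (27 below 0). Without untreated knockout replicate 1 or 2 or untreated reporter replicate 4 it was 0.20 to 0.21. Psmd14 had 9.66, 10.16 and 10.51 in untreated knockout cells, against 9.08, 8.94, 9.48, 9.71 and 8.24 in untreated reporter cells, with overlap between 9.66 and 9.71. It was called at 0.99 ± 0.31 (SE, adjusted p = 0.0121) and at 0.84 after quantile normalization (adjusted p = 0.0305). Leaving out untreated reporter replicate 5 or untreated knockout replicate 3 ended this call (0.62 and 0.79, adjusted p = 0.0731 and 0.0713). Psmg3 had 7.10, 6.86 and 7.16 in knockout cells, against 5.74, 5.61, 5.55, 6.29 and 6.40 in reporter cells, and was called at 0.83 ± 0.15 (SE, adjusted p = 0.000133) but not after quantile normalization (0.22, adjusted p = 0.371). The untreated knockout arrays lay wholly above the untreated reporter arrays for 3 of the 42 genes, Psmb1, Psmb11 and Psmg3, against 44.1% of all genes. The smallest difference was that of Psmb6, at 0.002, with the values given above.

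Genes around the proteasome were followed in 4 lists, whose counts stand beside 16.9% of all genes called lower in hCD2-negative cells and 9.66% in hCD2-positive cells. Single calls in a list, such as 1 of 13 or 1 of 8 in hCD2-positive cells, lay near those shares. Of the proteasome partners (assembly, receptor and deubiquitinase proteins, 13 of 16 measured), 6 fell in hCD2-negative cells, among them the core maturation factor Pomp (-0.90, adjusted p = 0.0283) and the thioredoxin-like protein Txnl1 of the regulatory particle (-1.23, adjusted p = 0.00296). In hCD2-positive cells 1 fell, Txnl1 (-0.96, adjusted p = 0.0218), and Pomp lay at -0.60 (adjusted p = 0.174). In the knockout none was called as deposited, with Pomp at -0.87 (adjusted p = 0.299). Quantile normalization called 2 partners lower there, Pomp (-0.76, adjusted p = 0.0432) and Rad23b (-0.38, adjusted p = 0.0215), against 5.07% of all genes. Of ubiquitin and p97 genes (4 of 11 measured), 1 fell in hCD2-negative cells, Nploc4 (-0.75, adjusted p = 0.0441), a cofactor of the p97 unfoldase, and none in the other comparisons. Pomp had 9.46, 9.59, 8.94, 7.79 and 8.84 in hCD2-negative cells, against 10.10, 9.99, 10.67, 9.45 and 8.90 in untreated reporter cells, with overlap. The calls on Pomp and Nploc4 in hCD2-negative cells ended with quantile normalization (-0.42 and -0.25, adjusted p = 0.105 and 0.122). The median log2 fold change of the partners was -0.60 in hCD2-positive cells, -0.65 in hCD2-negative cells and -0.39 in the knockout, and that of the ubiquitin and p97 genes was -0.45, -0.53 and -0.14.

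Of the 8 of 9 measured genes around Nfe2l1, 4 fell in hCD2-negative cells (Nfe2l1, its deglycosylase Ngly1, its dimer partner Mafg, and Zfand5, a proteasome-binding protein) and 3 in hCD2-positive cells (Nfe2l1, Mafg and Zfand5). Nfe2l1 had 7.60, 7.43, 6.13, 7.82 and 7.82 in hCD2-positive cells and 6.59, 7.72, 6.60, 7.57 and 7.97 in hCD2-negative cells, against 8.85, 8.21, 8.42, 9.36 and 8.51 in untreated reporter cells. Both fractions lay wholly below the untreated cells, and Nfe2l1 fell by 1.31 and 1.38 on the log2 scale (SE 0.28 each, adjusted p = 0.00489 and 0.0023). After quantile normalization it was called in both fractions as well, at -1.05 and -0.95. The calls on Mafg and Ngly1 in hCD2-negative cells ended with it (adjusted p = 0.0933 and 0.0689), so that 2 of the 8 genes were called there. The median log2 fold change of the 8 genes was -0.61 in hCD2-positive cells, -0.61 in hCD2-negative cells and -0.43 in the knockout. In the knockout Nfe2l1 had 8.14, 8.47 and 8.25 in TGFB-treated cells, against 8.97, 9.13 and 9.93 in untreated cells (-1.06 ± 0.37, SE, adjusted p = 0.177), and it was called after quantile normalization (-0.93, adjusted p = 0.0195). Its relative Nfe2l2 lay at 0.70 in the knockout (adjusted p = 0.343), at 0.88 after quantile normalization (adjusted p = 0.00502). In the reporter fractions it lay at -0.20 (hCD2-positive) and -0.39 (hCD2-negative) and was not called, and quantile normalization turned these to 0.12 and 0.06.

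Of the 8 of 10 measured genes of MHC class I loading, 3 fell in hCD2-negative cells, namely the chaperone Calr (-0.96, adjusted p = 0.00174), the disulfide isomerase Pdia3 (-1.07, adjusted p = 0.00117) and the peptide transporter subunit Tap2 (-0.85, adjusted p = 0.015). Calr alone fell in hCD2-positive cells (-0.92, adjusted p = 0.00347), and none was called in the knockout. The median of the list was -0.45 in hCD2-positive cells, -0.63 in hCD2-negative cells and 0.03 in the knockout. Tap1, the other transporter subunit, lay at -0.56 in hCD2-positive and -0.74 in hCD2-negative cells (adjusted p = 0.201 and 0.0654), and at 0.17 in the knockout. Irf1, the interferon-induced factor known to drive Psmb9 and Tap1, lay at -0.12, -0.52 and 0.37 in the same order and was not called, and quantile normalization turned its value in hCD2-positive cells to 0.23. In the 3 TGFB comparisons the genes named from these lists other than Nfe2l1, Pomp, Tap1, Irf1, Calr, Pdia3, Mafg, Txnl1 and Nfe2l2 were chosen after their values were seen.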

How the data were processed

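The authors deposited 1 table of log2 signals per array, 21 in all, made with RMA in Affymetrix Expression Console 1.2, with mm8 as the genome build, per the submitters' processing notes. RMA combines the probes of a cluster, and whether the genotypes were normalized together is not given in the sources used here. Of 23332 transcript clusters, 14996 carried 1 symbol, 1019 several and 7317 none. Keeping the highest-mean cluster per symbol gave 14860 genes.

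All 21 arrays entered one linear model with the 5 groups and the study number (limma 3.58.1, R 4.3.3). P-values are 2-sided, adjusted over the 14860 genes by Benjamini-Hochberg, and called under 0.05, for 7 contrasts. Clusters shared by several symbols were tested among all 23332. The script was checked on simulated data. Alternatives were quantile normalization, centring on array medians, array weights, no dim genes, no study term, single studies, compared groups alone, a replicate block, no narrow arrays and leaving out each array. Every member may be named. Values on each array are given for the called members among the 6 largest changes of a contrast, for Psmb6 to Psmb10 and Psme1, and for the smallest change. From the pathway lists, the 4 smallest p per contrast, Nfe2l1, Pomp, Tap1 and Irf1 are named. Psmb1 and Psmd8, other list members and the knockout genes given by array were chosen after values were seen. The members and lists were chosen with earlier results of these data known. Promoters are RefSeq's (GRCm38.p6), a build other than that of the arrays, and no array coordinates were used.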

Additional observations from a re-analysis of the deposited data

Results flagged for a closer look

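Groups of 5 arrays were tested for the 42 genes, 126 cases in all. In 19 cases, 15.1%, the highest or lowest array lay apart from the other 4 by more than Dixon's critical value. Chance flags about 1 in 20 independent cases, but these genes share their arrays, so the count cannot be set against that rate. In 13 of the 19 cases the array was hCD2-positive replicate 3, the array with the narrowest range (2.01). It was the lowest of its group for 38 of the 42 genes. Its log2 signals were 7.12 for Psma6, 6.97 for Psma7, 7.69 for Psmb1, 8.34 for Psmb4, 8.01 for Psmb8 and 7.58 for Psmc3. The regulatory non-ATPases Psmd8, Psmd13 and Psmd14 had 8.08, 6.46 and 8.01, the chaperones Psmd5 and Psmd9 had 6.01 and 6.55, Psmf1 had 6.46 and Psme3ip1 had 7.97. Untreated reporter replicate 5 was low for Psma2 (8.73) and Psmc1 (7.39), and untreated replicate 4 was high for Psmd5 (8.18) and Psmd9 (8.14). Psmb11 was low on hCD2-positive replicate 1 (4.36) and on untreated replicate 1 (4.99).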

How the results depend on the processing

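No member whose change was called on the deposited values turned its direction under any alternative run. For hCD2-positive cells against untreated cells, the 4 calls became 2 without the study term, 7 after quantile normalization, 2 with the compared groups alone, 0 within study 1 and 0 within study 2 (8 and 4 of the 42 at an unadjusted p under 0.05), and 2 without the narrow arrays, and 2 to 9 on leaving out single arrays (2 without hCD2-positive replicates 3 or 4 or untreated replicates 1 or 4, and 7, 8 and 9 without hCD2-positive replicate 1, hCD2-positive replicate 2 and untreated replicate 5). For hCD2-negative cells the 18 calls (18.9% of all genes called) became 38 with array weights (39.1%). They became 0 within study 1 and 1 within study 2 (21 and 12 at an unadjusted p under 0.05). Without the narrow arrays 2 were left (6.8%), and 7 without them after quantile normalization (13.2%, added after seeing the data). Leaving out single arrays gave 13 to 26 calls, with 12.2% to 25.5% of all genes called. Of the members' calls in the main fit, 2 of 4 in hCD2-positive and 13 of 18 in hCD2-negative cells held whichever array was left out. Those lost at least once were Psma7 and Psmg1, and Psmc4, Psmc5, Psmd3, Psmd14 and Psme1. Between the fractions, array weights gave 29 calls (23.5% of all genes). In the knockout, quantile normalization gave 5 (10.8% of all genes) and array weights gave 2, Psmb1 and Psmg3 (10.1% of all genes). Between genotypes, the 2 calls became 5 without the study term, 0 with arrays centred on their medians, 4 within study 2 and 1 to 3 on leaving out single arrays. Of all genes, 50.7%, 3.23%, 42.4% and 41.5% to 45.5% were called in these runs. The members' shares lay below these, at 11.9% without the study term and 9.52% within study 2. The offset between the genotypes varied with signal level, so these lower shares cannot be read as particular to the members. The response of hCD2-negative minus knockout cells gave 23 calls with array weights (22.2% of all genes). Leaving out single arrays left 0 calls between the fractions, in the knockout and in both response differences. The arrays weighted most were TGFB-treated knockout replicate 3 (4.08), hCD2-positive replicate 5 (3.89) and hCD2-negative replicate 4 (2.66), one of the narrow arrays, where the other hCD2-negative arrays had 0.391 to 0.992 and hCD2-positive replicate 3 had 0.136. Studies and reduced sets hold fewer arrays, and other causes were not tested. Same-numbered arrays of different groups correlated at 0.10 to 0.80 in the reporter (14 of 15 pairs over 0.1) and at -0.18 to 0.58 in the knockout (2 of 3 pairs). Since not every pair was over 0.1, the main fit did not pair the samples by number. Same-numbered hCD2-positive and hCD2-negative arrays correlated at 0.098, 0.66, 0.79, 0.74 and 0.80 (replicates 1 to 5). The 2 fractions may thus be paired, which the main fit does not use. With the study means removed, same-numbered reporter arrays correlated at -0.37 to 0.71 (median -0.08, 4 of 15 over 0.1), and arrays of different number at -0.79 to 0.65 (median 0.02, 21 of 60 over 0.1). The 4 same-numbered pairs over 0.1 were all pairs of the 2 fractions, at 0.64, 0.71, 0.40 and 0.46 (replicates 2 to 5). The fraction pair of replicate 1 lay at -0.30. With a replicate block the calls were 6 for the hCD2-positive fraction, 22 for the hCD2-negative one and 0 in knockout cells. Of all genes, 13.3%, 22.8% and 3.47% were called in these, so the 6 calls (14.3% of the members) lay near the share of all genes. The block gave 0 calls between the fractions and in both response differences. The number of arrays and the narrow range of some of them limit these values, and the dimmest members (Psma3 and Psmb11) have little signal above background.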

Other observations

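Subunit genes on clusters shared with other symbols were not members, and their signals cannot be assigned to 1 gene. The cluster shared by Psmd1, the largest non-ATPase subunit, and Armc9 had log2 signals of 6.87, 6.70, 6.45, 7.0 and 6.88 in hCD2-positive cells and 6.48, 6.91, 6.63, 6.89 and 6.99 in hCD2-negative cells, against 5.97, 6.29, 6.21, 6.32 and 6.72 in untreated reporter cells. It was called higher in both fractions (0.48 ± 0.11 each, SE, adjusted p = 0.0123 and 0.00856). In the knockout it had 7.31, 7.52 and 7.59 in TGFB-treated cells, against 6.89, 6.83 and 6.90 in untreated cells, and was called higher as well (0.60 ± 0.15, SE, adjusted p = 0.0433). No member was called higher in any of these 3 comparisons. The 2 clusters shared by Psme2 and Psme2b and the cluster of Ankhd1, Eif4ebp3 and Psma4 were not called in them.

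In hCD2-negative cells the quantile-normalized values gave 5 proteasome partners lower and 3 higher, the 3 being Akirin2, an import factor of the proteasome, and the ubiquitin-binding Ubqln2 and the F-box protein Fbxo7, which were chosen after their values were seen. None of the 3 was called higher on the deposited values. Ufd1, a cofactor of p97, was called higher after quantile normalization in both fractions (0.30 in hCD2-positive and 0.32 in hCD2-negative cells, adjusted p = 0.0197 and 0.0127) and lay at -0.06 and -0.20 as deposited, without a call.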
